A study of Mus musculus with 30 samples.

Results

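Epdr1, Fst, Fam19a5, Slc8a3, Kcnk3 and Cd151 are 6 mouse genes that were followed through brain, kidney, liver, quadriceps femoris muscle and spleen of mice that carried 1 or 2 working copies of Ctcf. They were taken from the 48709 genes counted and were selected on measured values: each had a large difference between genotypes in 1 tissue. Kidney chose Epdr1 and Fst, liver chose Fam19a5 and Slc8a3, and muscle chose Kcnk3 and Cd151. The difference in the choosing tissue is therefore given only as a description, with no test, and the tests concern the other 4 tissues. RNA was sequenced from adult C57BL/6 mice, 3 wild type (WT, labelled control) and 3 Ctcf haploinsufficient (Ctcf+/-), with 3 libraries per tissue and genotype and 30 libraries in all. No treatment was given in the labels, and all animals share the strain and the stage. The sources used here do not give the design of the Ctcf allele, the age in weeks or the sex. The series design names the same 3 mice per genotype for the 5 tissues, so each tissue holds 1 library per mouse, but the labels do not say that library 1 of brain and library 1 of kidney came from the same animal.

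CTCF is a zinc-finger protein that binds DNA at sites throughout the genome and, together with cohesin, holds the bases of chromatin loops and separates neighbouring regulatory domains. Its binding and the loops it anchors are known to differ in part between cell types. The 6 genes come from unrelated families. Epdr1, Fst and Fam19a5 encode secreted or lysosomal proteins: Epdr1 encodes a lysosomal and secreted glycoprotein with a lipid-binding fold, Fst encodes follistatin, which binds and neutralises activins, and Fam19a5, now also named Tafa5, encodes a small secreted chemokine-like protein made mainly in the nervous system. Slc8a3 encodes the sodium-calcium exchanger NCX3 of neurons and skeletal muscle, and Kcnk3 encodes the acid-sensitive potassium leak channel TASK-1. Cd151 encodes a tetraspanin that holds laminin-binding integrins in the membrane.

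The regions just upstream of these genes are shown because CTCF and other factors can bind there, and because the genes differ widely in base composition. RefSeq (GRCm38.p6) gave 6 start-site windows of 250 bases for 4 of the 6 genes. Fst and Kcnk3 were not matched in the table used here. Both strands were searched for AGNNGGCNC, the core of the CTCF motif, for the GC box GGGCGG and for TATAAA. The capitals mark matches to the CTCF core or the GC box, and adjoining or overlapping matches form 1 run of capitals. The Epdr1 window is chr13:19619831-19620080 on the minus strand, the Slc8a3 window is chr12:81333181-81333430 on the minus strand, the Fam19a5 window is chr15:87624980-87625229 on the plus strand, and the Cd151 window is chr7:141467112-141467361 on the plus strand.
Epdr1: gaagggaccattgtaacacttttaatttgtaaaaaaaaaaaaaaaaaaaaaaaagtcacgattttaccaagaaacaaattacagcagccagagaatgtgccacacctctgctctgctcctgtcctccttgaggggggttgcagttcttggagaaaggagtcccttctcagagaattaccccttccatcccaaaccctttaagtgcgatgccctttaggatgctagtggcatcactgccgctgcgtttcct
Slc8a3: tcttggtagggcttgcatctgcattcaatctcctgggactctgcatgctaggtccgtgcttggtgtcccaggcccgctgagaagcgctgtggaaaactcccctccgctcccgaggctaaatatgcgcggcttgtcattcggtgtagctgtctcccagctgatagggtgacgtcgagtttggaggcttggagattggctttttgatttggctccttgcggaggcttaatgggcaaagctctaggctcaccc
Fam19a5: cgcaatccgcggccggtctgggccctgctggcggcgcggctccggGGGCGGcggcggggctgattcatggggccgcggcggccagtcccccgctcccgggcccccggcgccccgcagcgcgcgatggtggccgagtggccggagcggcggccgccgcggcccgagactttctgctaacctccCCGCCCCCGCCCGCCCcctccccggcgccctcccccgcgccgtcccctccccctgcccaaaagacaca
Cd151: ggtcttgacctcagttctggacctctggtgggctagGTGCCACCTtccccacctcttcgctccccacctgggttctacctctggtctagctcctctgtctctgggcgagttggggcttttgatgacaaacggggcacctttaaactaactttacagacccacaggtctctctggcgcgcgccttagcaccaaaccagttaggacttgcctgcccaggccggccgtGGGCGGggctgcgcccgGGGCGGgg
The Epdr1 window held 44.0% G and C, and none of the 3 motifs. The Slc8a3 window held 56.0% G and C and also had no match. The Fam19a5 window held 81.6% G and C and 4 GC boxes, and a second RefSeq start of the gene at base 87544299, upstream of the gene model counted here, was similar, with 83.6% and 4 GC boxes. Over all 32851 windows of this length the median was 52.4%, and the 2 Fam19a5 windows lay at percentiles 99.35 and 99.73. Cd151 was the only one of the 4 genes with a CTCF core, GTGCCACCT on the minus strand, and the window printed also held 2 GC boxes. A second RefSeq start of Cd151, at base 141468789, had a window with 58.0% G and C and none of the 3 motifs. A CTCF core was found in 17.6% of all windows, a GC box in 32.7% and TATAAA in 12.4%, so such matches are common, and no binding data were used here.

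The depth of the 30 libraries lay between 49.82 M and 131.646 M counts (M for mega). Levels are given in CPM, the count of a gene per M of the library's counts, and 3 counts, taken here as the floor, corresponded to 0.0228 to 0.0602 CPM. Ctcf itself was lower in the 3 heterozygous libraries than in the 3 WT libraries of each of the 5 tissues, at 61.4% to 67.2% of the WT mean, the direction that the labels give. The labelled tissues carried their own marker genes: 5 neuron genes summed to between 5191 and 6379 CPM in brain, 5 hepatocyte genes to between 144590 and 200460 CPM in liver, and 5 fast-fibre genes to between 134630 and 164780 CPM in muscle. Proximal tubule genes summed to between 19958 and 25490 CPM in kidney, and lymphocyte genes to between 2614 and 3379 CPM in spleen. The Y-linked genes Ddx3y, Uty, Kdm5d and Eif2s3y had 0 counts in all 6 libraries of brain, kidney and muscle. Xist, the other gene of that list, thus made up its sums there, 62.4 to 564.3 CPM, the pattern of female animals. Liver held some reads of Eif2s3y and spleen some of all 4, too few to test. CPM were scaled within each tissue by edgeR's TMM method, so they compare genotypes within a tissue closely and tissues only roughly. In bulk tissue, fewer cells of a type and less RNA per cell cannot be told apart.

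Outside the tissue that chose it, no gene of the 6 was called. There are 24 such pairs of gene and tissue. In 3 of them, Fst, Fam19a5 and Slc8a3 in spleen, the counts were too low to test. In the other 21, edgeR's quasi-likelihood test with Benjamini-Hochberg adjustment over all genes of the tissue called 0 at an adjusted p of 0.05, 2 had an unadjusted p below 0.05, and DESeq2 also called 0. The lowest adjusted p of the 21 was 0.469. The share of all tested genes that the same test called was low too: 0.0157% of brain genes, 0.0211% of kidney genes, 0.0193% of liver genes, 0.0249% of muscle genes and 0.242% of spleen genes. The same edgeR test called Ctcf itself in brain (adjusted p = 0.0259) but not in kidney (0.107), liver (0.543), muscle (0.250) or spleen (0.914). A missing call thus does not show that a difference is absent. In 3 of the 21 pairs the WT and heterozygous libraries did not overlap. Over all tested genes that held for 7.83% of brain genes, 11.4% of kidney genes, 8.99% of liver genes, 12.2% of muscle genes and 6.64% of spleen genes, so 3 of 21 is near the background. The called shares rest on few genes and moved with single libraries: between 0 and 29 spleen genes and between 3 and 56 kidney genes were called when 1 library was left out, beside 45 and 4 with all of them. The median size of the log2 difference was 0.13 in these 21 pairs, and the sizes in the choosing tissues, which are the basis of the choice, ran from 0.80 to 5.18. The direction was that of the choosing tissue in 15 of the 21 pairs.

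**Figure D1:**
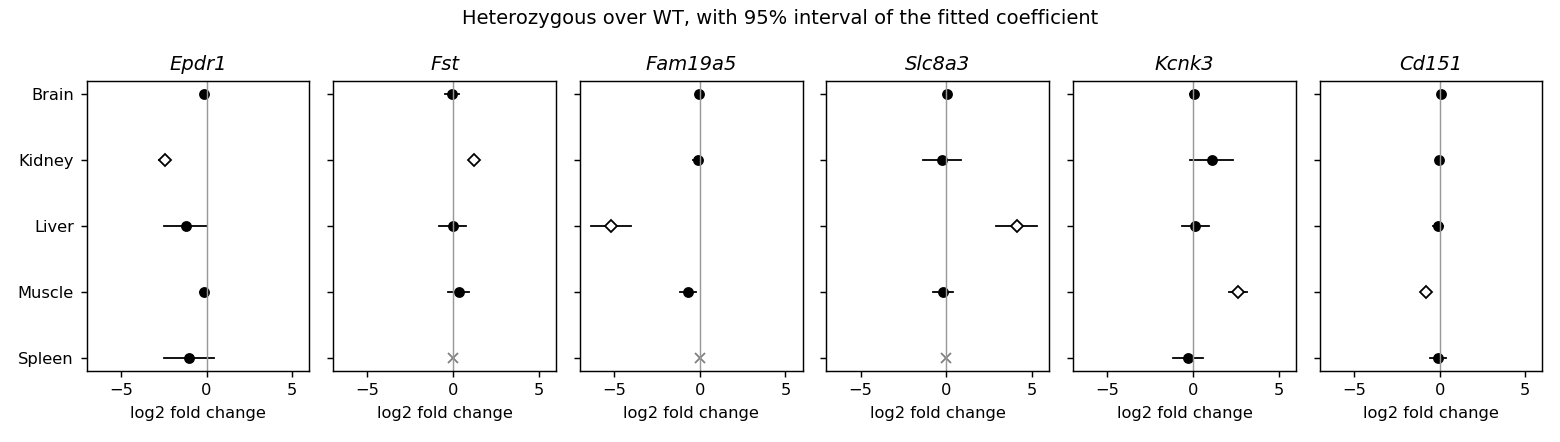
Log2 fold change of heterozygous over WT (x axis) for each gene in each tissue (y axis), with 3 libraries per genotype. Open diamonds are the tissue that chose the gene, filled circles the other tissues, lines the 95% interval of the edgeR coefficient and crosses the 3 pairs that were not tested. The open diamonds run from -5.18 to 4.11, and 18 of the 21 filled circles lie between -0.70 and 0.70.

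Epdr1 was lower in the heterozygous kidney, where it was chosen. The WT kidney libraries held 12.1, 13.3 and 15.2 CPM, and the heterozygous libraries held 2.50, 2.69 and 2.31 CPM. The groups were far apart, with a 5.41-fold lower mean in the heterozygous kidney (log2 fold change -2.44, SE 0.14). Epdr1 was an abundant transcript in muscle and brain and a rare one in liver: the WT means were 139.6 ± 8.85 CPM in muscle, 134.2 ± 2.89 in brain, 13.5 ± 1.52 in kidney, 9.73 ± 4.85 in spleen and 0.417 ± 0.233 in liver (SD, n = 3). The WT libraries of muscle and brain overlapped, as did those of kidney and spleen, and the other steps in this order were wider than the spread.

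In brain, Epdr1 was at 134.5, 131.1 and 136.8 CPM in WT and at 124.1, 119.1 and 119.6 CPM in heterozygous libraries. The groups did not overlap, and the heterozygous mean was 90.1% of WT, but the difference of -0.15 (SE 0.05) had an adjusted p of 1 by edgeR. In muscle the groups overlapped, at 132.4 to 149.5 CPM in WT and 118.7 to 137.1 CPM in heterozygous libraries. Spleen varied more among mice than between genotypes, with 9.45, 14.7 and 5.03 CPM in WT and 1.57, 7.34 and 5.47 CPM in heterozygous libraries. The log2 difference there was -1.02 (95% interval -2.47 to 0.42), and it was -0.60 without heterozygous library 1, which held the lowest value. In liver Epdr1 was near the limit of detection, with 33, 9 and 37 reads in WT and 16, 8 and 14 reads in heterozygous libraries, and the difference was -1.22 (95% interval -2.47 to 0.03). The fitted Epdr1 difference was below 0 in each of the 5 tissues, and none of the 4 outside kidney was called.

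The genes around Epdr1 did not share its lower level. Of the 9 genes tested within 500 kb of it in kidney, edgeR called 0, DESeq2 called 0 and 3 had an unadjusted p below 0.05. The nearest on one side was Sfrp4, a secreted inhibitor of Wnt signalling, 3345 bases away, at 0.943 ± 0.076 CPM in WT and 1.07 ± 0.183 CPM in heterozygous kidney (log2 fold change 0.18, SE 0.22). The nearest on the other side was Stard3nl, a protein of late endosomes, at 32.2 ± 1.43 and 30.7 ± 2.13 CPM (log2 fold change -0.07, SE 0.09). Both differences were smaller than their standard errors. The 3 neighbours that did not overlap between groups, Amph, Tcrg-C1 and Tcrg-C2, were all higher in heterozygous kidney. Over all tested kidney genes, 11.4% did not overlap.

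Transcripts of proteins that share the lysosomal route with Epdr1 did not move with it in kidney. Of 8 other genes, which include the sorting receptors M6pr and Igf2r, 5 were higher and 3 were lower, with a median log2 difference of 0.05 beside 0.0002 over all genes tested, and 0 were called by either tool, with 0 at an unadjusted p below 0.05. Psap, the precursor of the saposins and the most abundant per exon length, was at 1674 CPM in WT and 1592 CPM in heterozygous kidney. Ctsd, the protease with the smallest p of the group, was at 379.5 and 423.1 CPM, with an adjusted p of 0.975 by edgeR. Over the 10 means of tissue and genotype, the genes most like Epdr1 were Cops4, Cacnb1 and Cops8, with Pearson correlations of 0.983, 0.976 and 0.976 of log2 CPM. These correlations follow the tissue order, which spans 335-fold for Epdr1 in WT.

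**Figure D2:**
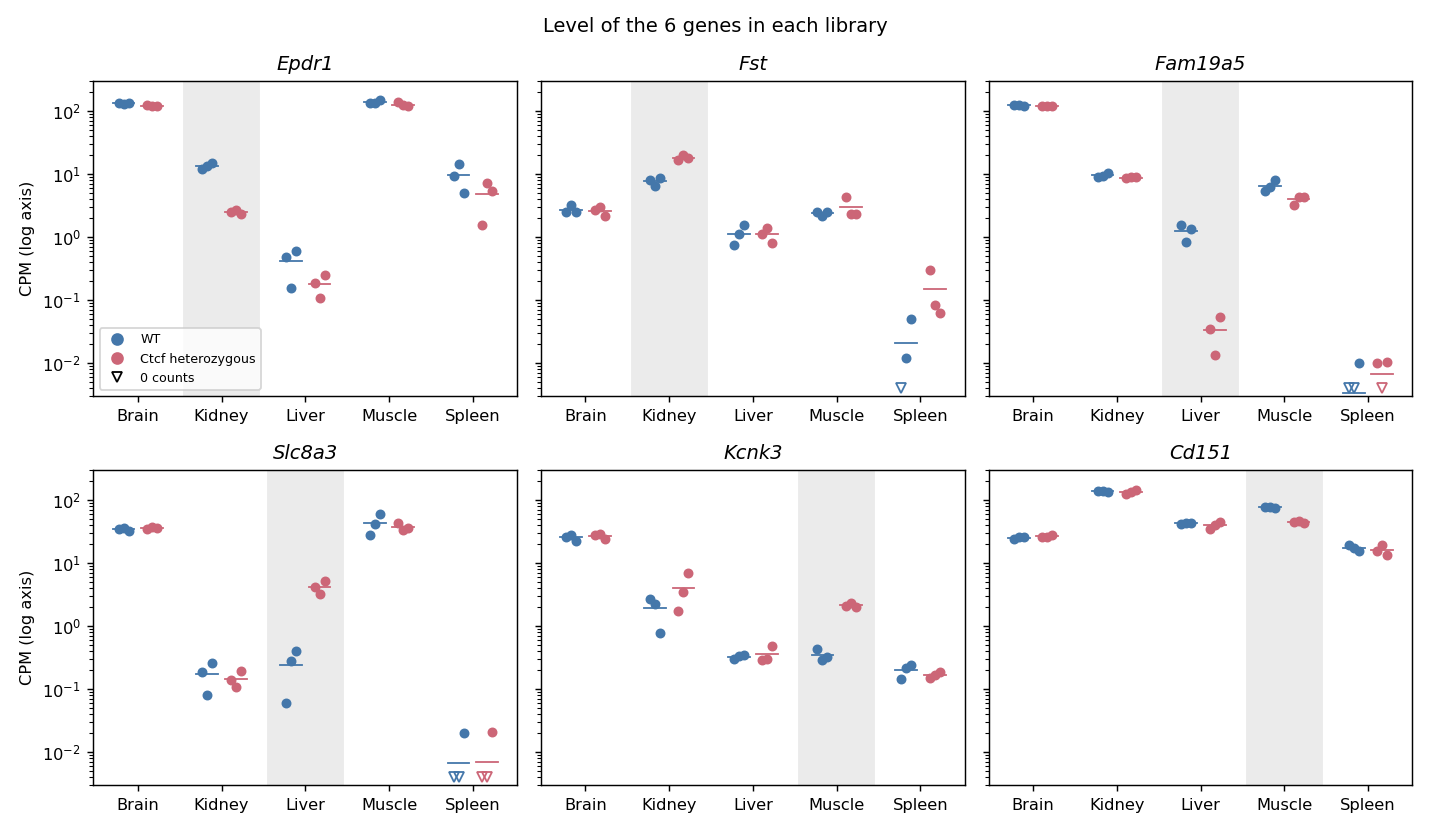
CPM (y axis, log scale) of the 6 genes in each of the 30 libraries, by tissue (x axis). Points are libraries, short lines are group means, open triangles mark libraries with 0 counts and grey bands mark the tissue that chose the gene. Outside the grey bands the WT and heterozygous points of most pairs overlap.

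Fst was higher in the heterozygous kidney, where it was chosen. The WT kidneys held 8.06, 6.60 and 8.66 CPM and the heterozygous kidneys 16.6, 20.0 and 18.0 CPM. The groups did not overlap, and the heterozygous mean was 2.34-fold higher (log2 fold change 1.23, SE 0.13). Kidney was also the WT tissue with the highest Fst level, at 7.77 ± 1.06 CPM, followed by brain at 2.73 ± 0.447, muscle at 2.40 ± 0.180, liver at 1.13 ± 0.401 and spleen at 0.0208 ± 0.0263 CPM (SD, n = 3). The brain and muscle libraries overlapped in this order.

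Brain and liver showed no call for Fst, with log2 differences of -0.05 (95% interval -0.45 to 0.36) and -0.01 (95% interval -0.80 to 0.77). In muscle the WT libraries held 2.48, 2.19 and 2.52 CPM and the heterozygous libraries 4.31, 2.30 and 2.33 CPM. One heterozygous muscle stood apart, and without it the log2 difference went from 0.32 to -0.04. Spleen held almost no Fst: 0, 1 and 5 reads were counted in WT and 30, 6 and 6 reads in heterozygous libraries. The spleen groups did not overlap, but most of these values are near the floor of 3 counts, and no fold is given. Traces of other organs differed between the spleens as well. Summed proximal tubule genes ran from 0.282 to 0.612 CPM in WT and from 10.4 to 21.5 CPM in heterozygous spleen, with 4 of 5 genes not overlapping. Summed hepatocyte genes ran from 32.8 to 42.1 CPM and from 0.0900 to 0.344 CPM, with 5 of 5 called by edgeR. Over all tested spleen genes, 6.64% did not overlap and 0.242% were called by edgeR. The part of these organ traces in the spleen values of Fst and Epdr1 was not tested.

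Follistatin acts on the activin pathway, and the other genes of that pathway were not called in kidney. Of 19 listed ligands, receptors and SMAD proteins, 15 were tested, 3 were higher and 12 were lower, with a median log2 difference of -0.07 and a range of -0.58 to 0.46. The tools edgeR and DESeq2 each called 0, and 2 had an unadjusted p below 0.05 by edgeR. In 3 of the 15 the groups did not overlap, beside 11.4% of all tested kidney genes. Tgfbr3, a co-receptor that presents TGF-beta and inhibin, was at 42.8 ± 1.63 CPM in WT and 36.2 ± 0.437 CPM in heterozygous kidney. Its groups did not overlap and its adjusted p was 0.531 by edgeR. Smad4, the common partner of the signalling SMADs, was at 45.8 ± 2.54 and 43.4 ± 5.07 CPM. In muscle, Acvr1c, the type I receptor ALK7 known from fat cells, was at 0.220 ± 0.0863 CPM in WT and 1.09 ± 0.680 CPM in heterozygous libraries. It was the only gene of the 6 lists that DESeq2 called in any tissue (adjusted p = 0.00434), and edgeR did not call it (adjusted p = 0.385).

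Around Fst, 5 genes were tested within 500 kb in kidney. Ndufs4, a subunit of respiratory complex I, was the nearest before it, at 129.2 ± 7.10 CPM in WT and 136.0 ± 18.8 CPM in heterozygous kidney, and Mocs2, an enzyme of molybdenum cofactor synthesis, was the nearest after it, at 114.5 ± 2.55 and 111.0 ± 3.59 CPM. Another neighbour differed more, and it is named here after its values were seen. Itga2, the collagen-binding integrin alpha 2 subunit, 377186 bases from Fst, ranged between 1.95 and 2.90 CPM in WT and between 0.285 and 0.719 CPM in heterozygous kidney. Its log2 fold change was -2.45 (SE 0.35), opposite in direction to Fst, with an adjusted p of 0.114 by edgeR and 1.39e-09 by DESeq2. The genes most like Fst over the 10 group means were Mill2, Lamb1 and Gpc3 (Pearson correlations 0.989, 0.989 and 0.986).

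Marker genes of several kidney compartments also stood apart between the genotypes. Summed podocyte genes ran from 212.8 to 260.4 CPM in WT and from 282.7 to 359.5 CPM in heterozygous kidney, with 4 of 4 genes not overlapping. Summed fibroblast genes ran from 298.2 to 336.0 CPM and from 377.8 to 478.6 CPM, with 5 of 7 genes not overlapping. Summed bile duct genes, which also mark other ducts, ran from 1903 to 2058 CPM and from 2410 to 2679 CPM. In 3 of the 5 genes the groups did not overlap, in either direction. Most of the sum was Spp1, at 1588, 1658 and 1555 CPM in WT and 2386, 2088 and 2283 CPM in heterozygous kidney. Krt19 of the same list went the other way, at 24.9, 22.5 and 19.5 CPM in WT and 10.9, 13.7 and 15.0 CPM in heterozygous kidney. Summed astrocyte and oligodendrocyte genes were lower, from 110.8 to 136.0 CPM in WT and from 72.2 to 89.9 CPM in heterozygous kidney. In 3 of the 4 tested genes of that list the groups did not overlap. Proximal tubule genes overlapped, at 22750 to 23496 CPM and 19958 to 25490 CPM. Over all tested kidney genes, 11.4% did not overlap. The part of these marker differences in the Epdr1 and Fst values was not tested.

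Fam19a5 was almost absent from the heterozygous liver, where it was chosen. The WT livers held 105, 48 and 83 reads, or 1.55, 0.835 and 1.36 CPM, and the heterozygous livers held 3, 1 and 3 reads, or 0.0348, 0.0135 and 0.0534 CPM. All 3 heterozygous livers were at or below the floor of 3 counts and none of the WT livers was. Over the summed reads, 236 against 7, the level was 39.2-fold lower in heterozygous liver, with an exact 95% interval of 18.7 to 98.6 that covers counting error only. Even in WT, liver was a minor site: the means were 122.8 ± 3.21 CPM in brain, 9.57 ± 0.789 in kidney, 6.50 ± 1.32 in muscle and 1.25 ± 0.370 in liver (SD, n = 3), and the libraries of these tissues did not overlap. In spleen at most 1 read was counted in any library.

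Brain, where Fam19a5 is made in quantity, held 123.9, 125.3 and 119.2 CPM in WT and 118.4, 122.3 and 118.7 CPM in heterozygous libraries. The groups overlapped, with a log2 difference of -0.04 (95% interval -0.16 to 0.09). In muscle the WT libraries held 5.33, 6.24 and 7.93 CPM and the heterozygous libraries 3.25, 4.41 and 4.41 CPM. The 2 groups were separate, with the heterozygous mean at 61.9% of WT (log2 fold change -0.69, SE 0.19). This was the smallest p among the 21 tests outside the choosing tissues. It was not called, with an adjusted p of 0.469 by edgeR and 0.102 by DESeq2. In kidney the groups just failed to overlap, with 8.937 CPM as the highest heterozygous value and 8.939 CPM as the lowest WT value, and the difference was -0.12 (SE 0.11).

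The liver values stand beside marker differences. WT liver library 3 carried brain-type transcripts: Snap25, a synaptic protein, was at 11.3 CPM there and at 0.310 to 0.674 CPM in the other 5 livers, and Mbp, a myelin protein, was at 14.8 CPM against 1.37 to 2.58 CPM. In WT livers 1 and 2 Snap25 was at 0.310 and 0.400 CPM and Fam19a5 at 1.55 and 0.835 CPM. Without WT library 3 the log2 fold change of Fam19a5 in liver was -5.12. Summed endothelial genes were lower in heterozygous liver, at 64.6 to 83.5 CPM against 93.2 to 108.2 CPM, with 5 of 5 genes not overlapping. Over all tested liver genes, 8.99% did not overlap. The part of either marker difference in the Fam19a5 value was not tested.

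Of the 6 other genes listed with Fam19a5, its family members and reported receptors, 3 were tested in liver and 3 were lower, none called by edgeR or DESeq2 and none with an unadjusted p below 0.05. Fam19a2, a relative, was at 6.50 CPM in WT and 4.99 CPM in heterozygous liver (log2 fold change -0.38, SE 0.22), and S1pr2, a sphingosine-1-phosphate receptor, was at 6.58 and 5.76 CPM. No gene within 500 kb of Fam19a5 had enough reads in liver to be tested. Pcdhb14 and Mycn were the genes most like it over the 10 group means (Pearson correlations 0.986 and 0.981). These means include the 2 liver groups that chose Fam19a5, so a like direction in liver is part of the choice. Mycn, a transcription factor of the MYC family, was at 1.49 CPM in WT and 0.292 CPM in heterozygous liver.

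Slc8a3 was higher in the heterozygous liver, where it was chosen. It was picked for the size of its difference, since its adjusted p of 0.0882 by edgeR lay outside the threshold of 0.05. The WT livers held 4, 16 and 24 reads, or 0.0590, 0.278 and 0.393 CPM, and the heterozygous livers held 357, 240 and 290 reads, or 4.14, 3.23 and 5.16 CPM. The lowest heterozygous liver was well above the highest WT liver, and the mean was 17.2-fold higher (log2 fold change 4.11, SE 0.52). This brought the heterozygous liver to 4.18 ± 0.964 CPM, still far below the tissues in which the exchanger is normally found. The WT means were 42.8 ± 15.5 CPM in muscle and 34.2 ± 2.42 CPM in brain, and 0.243 ± 0.170 in liver and 0.174 ± 0.0888 in kidney (SD, n = 3). The muscle and brain libraries overlapped, as did those of liver and kidney. In spleen 4 libraries held 0 reads and 2 held 2 reads each.

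The brain libraries were closely matched for Slc8a3, at 35.0, 36.1 and 31.5 CPM in WT and 34.7, 36.8 and 35.6 CPM in heterozygous mice, with a log2 difference of 0.06 (95% interval -0.10 to 0.23). Muscle varied more, at 27.9, 41.6 and 58.9 CPM in WT and 42.7, 33.5 and 35.3 CPM in heterozygous libraries. The highest WT muscle set the sign, since the log2 difference was -0.20 with it and 0.10 without it. Kidney held at most 25 reads per library, and its difference of -0.25 had a 95% interval from -1.35 to 0.84. None of the 3 differences was called, with adjusted p values of 0.960 to 1 by edgeR.

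Other calcium exporters did not follow Slc8a3 in liver. Of 12 listed exchangers and calcium pumps, 7 were tested, 3 were higher and 4 were lower, with a median log2 difference of -0.02, 0 called by edgeR or DESeq2 and 0 at an unadjusted p below 0.05. Slc8b1, the mitochondrial sodium-calcium exchanger and the highest of them per exon length, was at 60.1 CPM in WT and 59.4 CPM in heterozygous liver. Atp2b4, a plasma membrane calcium pump, was at 4.881 and 3.800 CPM, with the smallest p of the list. The 11 genes tested within 500 kb of Slc8a3 had log2 differences from -0.15 to 0.36, and in 0 of them did the groups fail to overlap. Over all tested liver genes, 8.99% did not overlap. Smoc1, a secreted calcium-binding matrix protein 11501 bases away, was at 122.5 ± 9.68 CPM in WT and 140.7 ± 14.7 CPM in heterozygous liver, and Cox16, an assembly factor of cytochrome oxidase, was at 10.4 ± 0.603 and 10.4 ± 1.61 CPM. Nfix, Tmem266 and Mical2 were most like Slc8a3 over the 10 group means, with Pearson correlations of 0.966, 0.965 and 0.964.

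**Figure D3:**
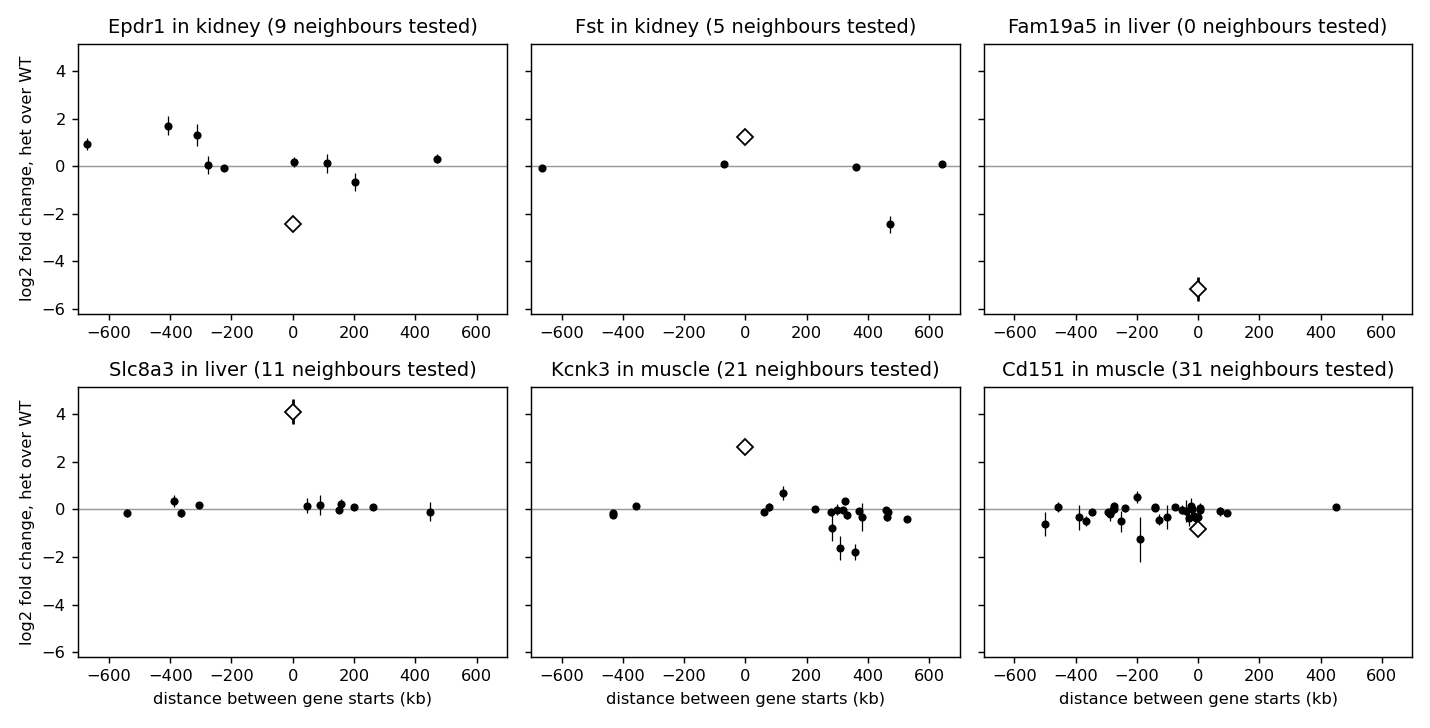
Log2 fold change of heterozygous over WT (y axis, with SE) for every tested gene whose body lies within 500 kb of each of the 6 genes, in the tissue that chose it, against the distance between gene starts in kb (x axis). The open diamond at 0 is the chosen gene. The named nearest neighbours have differences from -0.35 to 0.20, and no neighbour was tested around Fam19a5. All plotted neighbours run from -2.45 (Itga2, near Fst) to 1.70 (Tcrg-C1, near Epdr1).

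Kcnk3 was higher in the heterozygous muscle, where it was chosen. The WT muscles held 0.422, 0.291 and 0.318 CPM and the heterozygous muscles 2.05, 2.35 and 2.01 CPM. The 2 groups were tight and far apart, and the mean was 6.22-fold higher (log2 fold change 2.63, SE 0.23). Brain was the main site in WT, at 25.3 ± 2.66 CPM, followed by kidney at 1.90 ± 1.0, muscle at 0.344 ± 0.0695, liver at 0.323 ± 0.0252 and spleen at 0.201 ± 0.0496 CPM (SD, n = 3). The muscle and liver libraries overlapped. The exons of Kcnk3 overlap those of the gene model Gm9899 over at most 229 bases, so a small share of reads could be assigned differently.

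Kidney was the other tissue with a large fitted difference for Kcnk3, but it was not called. The WT kidneys held 2.71, 2.21 and 0.774 CPM and the heterozygous kidneys 1.72, 3.46 and 6.82 CPM. The groups overlapped, and the log2 difference of 1.08 had a 95% interval from -0.18 to 2.33 and an adjusted p of 0.857 by edgeR. Leaving out heterozygous kidney 3, the highest, gave 0.45, leaving out heterozygous kidney 1 gave 1.44 and leaving out WT kidney 3 gave 0.70. Markers of the adrenal gland, which lies on the kidney and in which TASK-1 is known to be abundant, were high in heterozygous kidneys 2 and 3. The summed level of 6 adrenal genes was 4.23, 4.39 and 4.47 CPM in WT kidneys and 4.71, 23.9 and 40.4 CPM in heterozygous kidneys. Of these genes 3 were tested, and in 1 of the 3 the groups did not overlap, beside 11.4% of all tested kidney genes. Cyp11b1, the 11-beta-hydroxylase of the adrenal cortex, was at 0.0211, 6.36 and 8.64 CPM in the heterozygous kidneys and at most 0.173 CPM in the WT kidneys. Adipocyte genes varied among the kidneys too. Their sum was 619.4, 374.6 and 79.5 CPM in WT and 310.3, 223.5 and 508.2 CPM in heterozygous kidneys, and these groups overlapped. The part of adrenal or fat cell RNA in the kidney Kcnk3 values was not tested.

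Adipocyte markers stood apart in muscle in the same direction as Kcnk3. The summed level of 6 adipocyte genes was 334.2, 267.8 and 180.6 CPM in WT muscle and 668.5, 374.7 and 524.7 CPM in heterozygous muscle. In 5 of the 6 genes the groups did not overlap, beside 12.2% of all tested muscle genes. Adipoq, the hormone adiponectin, was at 7.90, 7.06 and 2.36 CPM in WT and at 36.5, 12.8 and 22.8 CPM in heterozygous muscle. Ucp1, the uncoupling protein of brown fat, was counted 0, 2 and 0 times in WT muscle and 407, 324 and 30 times in heterozygous muscle. Ucp1 thus differed among the heterozygous muscles, with heterozygous muscle 3 the lowest. Cidea, a lipid droplet protein, was at 1.60, 0.775 and 0.307 CPM in WT and at 5.09, 7.52 and 5.47 CPM in heterozygous muscle. The part of fat cells in the Kcnk3 value was not tested.

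**Figure D4:**
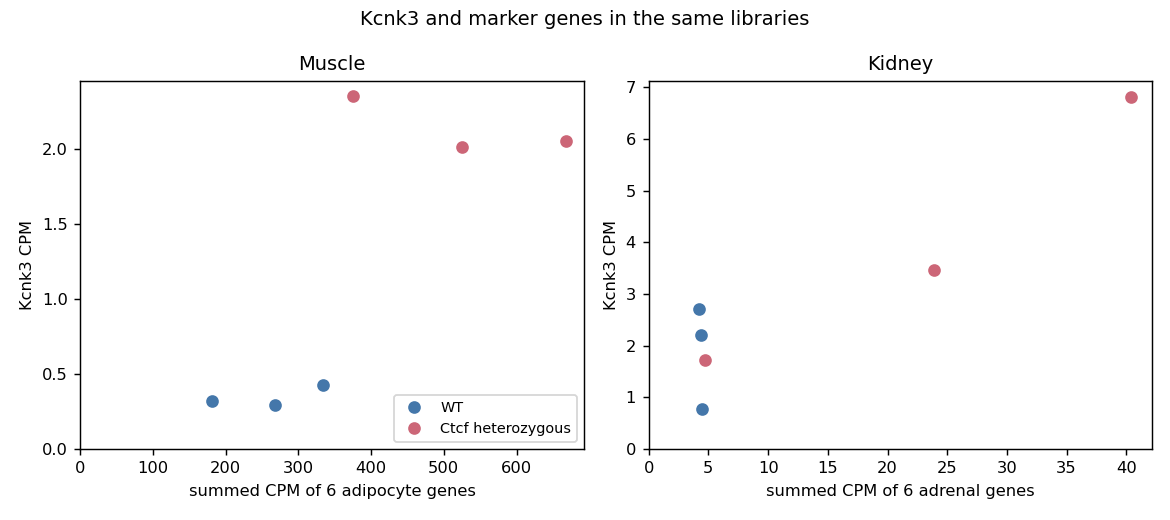
Kcnk3 CPM (y axis) against the summed CPM of marker genes (x axis), 1 point per library. In muscle (left) the 3 heterozygous libraries lie above and to the right of the 3 WT libraries for 6 adipocyte genes, and in kidney (right) the 2 heterozygous libraries with adrenal sums of 23.9 and 40.4 CPM hold 3.46 and 6.82 CPM of Kcnk3.

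In brain, where TASK-1 sets the resting potential of many neurons, the Kcnk3 groups overlapped at 26.1, 27.5 and 22.4 CPM in WT and 27.2, 28.9 and 24.2 CPM in heterozygous mice. The log2 difference there was 0.08 (95% interval -0.15 to 0.31). Liver (0.13, 95% interval -0.66 to 0.91) and spleen (-0.27, 95% interval -1.14 to 0.61) had at most 27 reads per library and no call. Of 13 other two-pore potassium channels, 5 were tested in muscle, 4 were higher and 1 was lower, with a median log2 difference of 0.17, and edgeR and DESeq2 each called 0, with 1 at an unadjusted p below 0.05. That one was Kcnk13, a channel of the THIK group, at 0.0682 ± 0.0268 CPM in WT and 0.188 ± 0.0890 CPM in heterozygous muscle (adjusted p = 0.647 by edgeR). Kcnk6, the TWIK-2 channel and the highest of them per exon length, was at 1.41 ± 0.140 and 1.59 ± 0.2504 CPM.

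Around Kcnk3, 21 genes were tested within 500 kb in muscle, of which edgeR called 0, DESeq2 called 1 and 5 had an unadjusted p below 0.05. Of the 21, 4 were higher and 17 lower, with a median log2 difference of -0.09 beside -0.0075 over all genes. In 5 of the 21 the groups did not overlap, beside 12.2% of all tested muscle genes. The nearest before it was Selenoi, an enzyme of phospholipid synthesis, at 10.6 ± 0.521 CPM in WT and 11.7 ± 1.22 CPM in heterozygous muscle, and the nearest after it was Slc35f6, of a solute carrier family, at 13.4 ± 1.09 and 12.5 ± 0.624 CPM. The gene called by DESeq2 was Cgref1, 307872 bases away and named after its values were seen. It ran from 0.866 to 1.48 CPM in WT and from 0.253 to 0.473 CPM in heterozygous muscle, the opposite direction to Kcnk3 (adjusted p = 0.255 by edgeR and 0.00086 by DESeq2). Pcdhb3, Cthrc1 and Arxes1 were the genes most like Kcnk3 over the 10 group means, with Pearson correlations of 0.984, 0.983 and 0.983. These means include the 2 muscle groups that chose Kcnk3.

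Cd151 was lower in the heterozygous muscle, where it was chosen, and its difference there was the smallest of the 6. The WT muscles held 77.7, 77.4 and 74.6 CPM and the heterozygous muscles 43.9, 45.4 and 42.4 CPM. Both groups were narrow, so that a mean at 57.3% of WT stood far outside the spread (log2 fold change -0.80, SE 0.08). Unlike the other genes, Cd151 was expressed well in every tissue. The WT means were 138.2 ± 2.89 CPM in kidney, 76.6 ± 1.72 in muscle, 42.6 ± 0.743 in liver, 25.1 ± 0.812 in brain and 17.1 ± 1.97 in spleen (SD, n = 3), with no overlap of libraries between any of these steps. The heterozygous muscle, at 43.9 ± 1.48 CPM, was near the WT liver. Traces of kidney genes also stood apart in muscle. Summed proximal tubule genes ran from 9.11 to 65.3 CPM in WT and from 0 to 5.75 CPM in heterozygous muscle, with 4 of 5 genes not overlapping. Summed genes of the loop and distal nephron ran from 2.80 to 18.3 CPM and from 0.219 to 1.09 CPM, with 5 of 5 not overlapping. Over all tested muscle genes, 12.2% did not overlap. The part of these kidney traces, and of the adipocyte genes described with Kcnk3, in the Cd151 value was not tested.

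In kidney, where Cd151 supports the glomerular filter, the WT libraries held 139.3, 140.4 and 134.9 CPM and the heterozygous libraries 125.6, 133.6 and 144.9 CPM. Those groups overlapped, with a log2 difference of -0.04 (95% interval -0.23 to 0.16). Brain held 24.2, 25.5 and 25.7 CPM in WT and 26.1, 25.6 and 27.3 CPM in heterozygous libraries, a difference of 0.07 (95% interval -0.08 to 0.22). In liver the heterozygous libraries were spread more widely than the WT libraries, at 34.6, 39.4 and 44.5 CPM against 41.8, 42.9 and 43.2 CPM, and the difference was -0.11 (95% interval -0.39 to 0.17). Spleen overlapped as well, at 19.1, 16.95 and 15.2 CPM in WT and 15.4, 19.1 and 13.2 CPM in heterozygous mice. None of the 4 differences was called, with adjusted p values of 0.999 to 1 by edgeR.

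Other tetraspanins and laminin-binding integrins did not share the lower level in muscle. All 21 were tested, 14 were higher and 7 lower, with a median log2 difference of 0.06 beside -0.0075 over all genes, and edgeR and DESeq2 each called 0, with 1 at an unadjusted p below 0.05. Cd63, a tetraspanin of late endosomes and the highest per exon length, was at 159.7 ± 29.6 CPM in WT and 144.1 ± 3.53 CPM in heterozygous muscle. Cd37, a tetraspanin of leukocytes with the smallest p, was at 0.423 ± 0.0529 and 0.724 ± 0.210 CPM (adjusted p = 0.687 by edgeR).

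The neighbourhood of Cd151 is dense, and 31 genes within 500 kb were tested in muscle. Of these, edgeR called 0, DESeq2 called 0, 0 had an unadjusted p below 0.05 and 3 did not overlap between groups, close to the 12.2% of all muscle genes. Polr2l, a subunit shared by the RNA polymerases and 387 bases away, was at 63.9 ± 3.73 CPM in WT and 63.3 ± 4.27 CPM in heterozygous muscle (log2 fold change -0.01, SE 0.09). Cracr2b, a regulator of store-operated calcium entry and 779 bases away on the other side, was at 4.76 ± 1.05 and 3.73 ± 0.0462 CPM (log2 fold change -0.35, SE 0.18, adjusted p = 0.844 by edgeR). Cracr2b was the gene most like Cd151 over the 10 group means, with a Pearson correlation of 0.987, followed by Clec1a at 0.984 and Tns1 at 0.981. These means include the 2 muscle groups that chose Cd151, so a like direction in muscle is part of the choice. The gene model Gm10575 overlaps Cd151 over at most 193 bases, at 0.310 ± 0.110 and 0.2496 ± 0.0486 CPM.

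**Figure D5:**
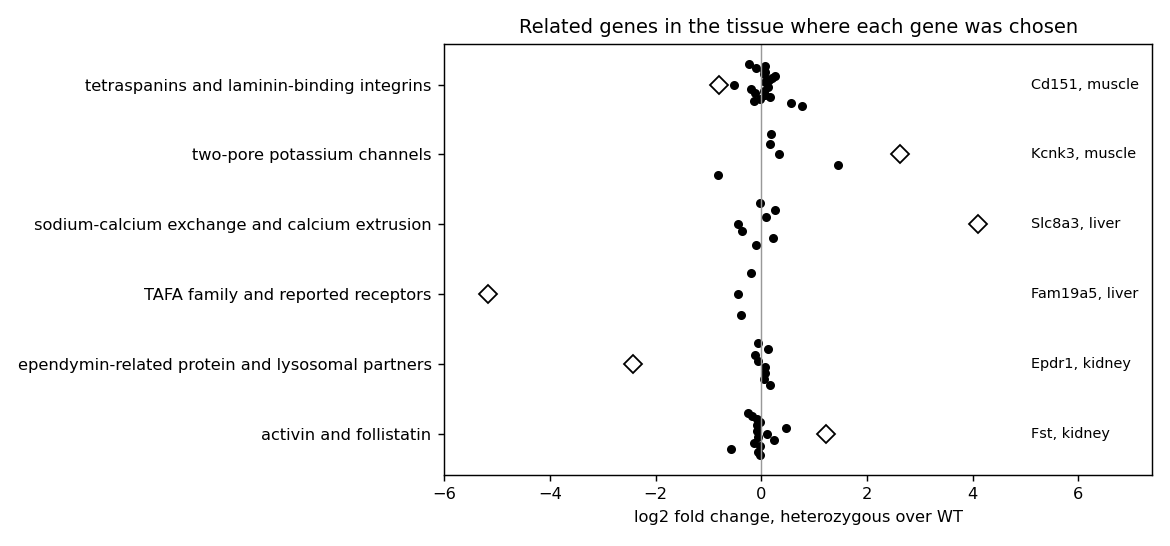
Log2 fold change of heterozygous over WT (x axis) of each tested gene of the 6 lists of related genes (rows), in the tissue that chose the named gene. Filled circles are the other genes of the list and open diamonds the chosen gene. The list medians lie between -0.38 and 0.17, and the diamonds lie outside the range of the circles in each row.

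Over the 5 tissues the 6 lists gave 319 tests of genes other than the 6, of which edgeR called 0, DESeq2 called 1 and 21 had an unadjusted p below 0.05. The 5 neighbourhoods gave 77 tests, of which edgeR called 0, DESeq2 called 2 and 9 had an unadjusted p below 0.05. The share of all genes at an unadjusted p below 0.05 was not counted, so 21 and 9 are not read as an excess. How many genes DESeq2 called in each whole tissue is given in the last section.

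A genotype effect common to the 4 tissues outside the choosing one was fitted for each gene over 24 libraries. edgeR called 0 of the 6 and DESeq2 called 0. Of the 6, 1 had an unadjusted p below 0.05 by edgeR, Epdr1, with a log2 fold change of -0.50 (95% interval -0.95 to -0.05, adjusted p = 0.907). For Fam19a5 the edgeR interval, -0.45 to -0.03, also left out 0, though its unadjusted p was 0.533 by edgeR. The interval was built from the F statistic, while the p value is the one that the test returned. Interval and p value thus do not match for Fam19a5. The same fit called 0.0681% of all genes outside kidney, 0.0624% outside liver and 0.0754% outside muscle. The series design takes the 5 tissues from 3 mice per genotype, so the 24 libraries are not independent and the edgeR p values of this fit are too small. A limma fit with the mouse as a random effect, which assumes that equal numbers mark 1 mouse, gave -0.26 for Epdr1 (95% interval -0.62 to 0.11), 0.32 for Fst (-0.23 to 0.86) and -0.12 for Fam19a5 (-0.29 to 0.06). For Slc8a3 it gave -0.01 (-0.28 to 0.26), for Kcnk3 0.31 (-0.09 to 0.70) and for Cd151 -0.04 (-0.15 to 0.08). Each of these 6 limma intervals includes 0. The difference between the choosing tissue and the others was not tested, since that tissue was picked for its value.

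No numerical limit is part of the choice of the 6 genes, but 5 of them also passed the edgeR threshold in the choosing tissue. These adjusted p values come from the libraries that chose the genes, so they describe the choice and lend it no support. With 1 library left out, the edgeR adjusted p was 0.00204 to 0.00807 for Epdr1, 0.0264 to 0.236 for Fst and 0.0422 to 0.3555 for Fam19a5. It was 0.0765 to 0.169 for Kcnk3 and 0.103 to 0.360 for Cd151. As a description, Fst was the called kidney gene with the largest adjusted p (0.0486), and Wfdc16, with a log2 difference of -1.53, was the first outside (0.0723). In liver Fam19a5 was the last inside (0.0264) and Tmed6 the first outside (0.0638), and in muscle Cd151 (0.0334) and Nmrk2 (0.0758) held those places.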

How the data were processed

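The authors counted reads per gene with featureCounts 1.5.0-p3 against Ensembl release 86 of GRCm38, per the file headers, and the deposited values are raw counts beside a gene length, the summed exon length. The submitters' processing notes also name FastQC, STAR and DESeq2. Duplicates, strand and multi-mapping settings are not given in the sources used here. Symbols came from a gene ID table, which matched 48349 of 48709 IDs.

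Within each tissue, 3 WT and 3 heterozygous libraries were compared with edgeR 4.0.16 (R 4.3.3; filterByExpr, TMM, quasi-likelihood F-test, Benjamini-Hochberg over all tested genes, called at adjusted p below 0.05). Log2 fold changes are heterozygous over WT, and intervals are 95%. The pipeline was tested on simulated data. DESeq2 1.42.0, limma 3.58.1, other scalings and filters, all 30 libraries in 1 fit, a replicate block and leaving out each library were the alternatives. Replicates are separate mice, per the series design. Same-numbered libraries deviated together in brain (correlations 0.207 to 0.537) and kidney (0.190 to 0.212), so numbers were taken to pair there, and not in liver, muscle or spleen. The main tests of every tissue, brain and kidney included, left this pairing out, and only the replicate block used it.

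The 6 genes and all gene lists were chosen with earlier results of these data known. Named list genes are those with the highest level per length and the smallest p. Neighbours are the nearest tested genes, and like genes have the highest Pearson correlation of log2 CPM (prior count 2) over group means, among 16160 genes with at least 1 CPM in 1 group. For each of the 6 genes, these means include the groups that chose it. Of the 3 like genes taken for each of the 6, 1 is not reported here.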

Additional observations from a re-analysis of the deposited data

How the results depend on the processing

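No alternative called any of the 6 genes outside the tissue that chose it, and none turned the sign in the choosing tissue. Leaving out 1 library at a time gave -2.51 to -2.35 for Epdr1 and 1.12 to 1.31 for Fst in kidney, -5.56 to -4.80 for Fam19a5 and 3.63 to 4.67 for Slc8a3 in liver, and 2.51 to 2.81 for Kcnk3 and -0.83 to -0.77 for Cd151 in muscle. Outside the choosing tissues, small differences changed sign. For Fst in liver this was so with total counts alone (0.0413), with the replicate block (0.0195) and with all 30 libraries in 1 fit (0.0171), which also turned Fst (0.0233) and Fam19a5 (0.032) in brain. Leaving out 1 library gave -0.16 to 0.10 for Fst in brain, -0.25 to 0.28 in liver and -0.0362 to 0.48 in muscle, -0.59 to 0.12 for Slc8a3 in kidney and -0.43 to 0.10 in muscle, -0.14 to 0.27 for Kcnk3 in liver, and -0.0942 to 0.0102 for Cd151 in kidney and -0.26 to 0.0146 in spleen. The common effect of Slc8a3 was 0.0135 without muscle and -0.15 to 0.10 without 1 mouse, and that of Cd151 was -0.0541 to 0.013. The cause was not tested. With the replicate block, Fam19a5 in muscle was -0.69 (adjusted p = 0.0812) and Epdr1 in brain -0.15 (adjusted p = 0.577), neither of them a call. The block moved Slc8a3 in liver, its choosing tissue, to 4.21 (adjusted p = 0.0297 beside 0.0882), although the numbers did not pair the livers, and it changed no other call of the 6 genes. Total counts alone left Fst (adjusted p = 0.0891), Fam19a5 (0.0512) and Cd151 (0.0848) outside the edgeR threshold in their choosing tissues. The fit of all 30 libraries left Fst outside it too (0.488). Slc8a3 passed with DESeq2 (2.6e-16), without the count filter (0.00099) and with all 30 libraries (1.1e-06). These p values also come from the libraries that chose the genes. The number of all genes called moved far more. In brain, kidney, liver, muscle and spleen it was 3, 4, 3, 4 and 45 with edgeR, 28, 175, 72, 159 and 187 with DESeq2, 22, 21, 7, 118 and 0 with the replicate block, 1, 13, 37, 229 and 250 with all 30 libraries and 6, 45, 16, 66 and 74 without the count filter. Leaving out 1 library gave 0 to 1, 3 to 56, 1 to 17, 1 to 2 and 0 to 29 calls. Depth limits Fam19a5, Fst and Slc8a3 in spleen, where they could not be tested, and Epdr1, Kcnk3 and Slc8a3 in the tissues where they had few reads.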
